A study of Saccharomyces cerevisiae with 16 samples.

Results

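Replicate set 3 (the libraries numbered 3) was compared with replicate set 1 (those numbered 1) across 4 groups of a yeast experiment. Every library came from trm10∆ spheroplasts, that is, yeast lacking the tRNA methyltransferase gene TRM10 and freed of their cell wall, which were electroporated and left to recover before harvest. The electroporated RNAs derive from rancRNA_18, a short noncoding RNA that binds ribosomes and comes from the TRM10 mRNA. How rancRNA_18-M2 differs from it is not given in the labels. Polysomal mRNA is the part that travels with several ribosomes in a density gradient. Each set holds 4 libraries of poly(A) mRNA, from total and from polysomal mRNA of spheroplasts given no RNA, and from total and polysomal mRNA of spheroplasts given rancRNA_18-M2. The 8 libraries are part of 16 deposited ones, which also hold the 4 libraries of set 2 and 4 files for rancRNA_18, of which the 2 polysomal files were equal in every gene. The sets were chosen by the measured values: over the whole table, libraries of the same number had deviated from their group means together. Set 3 against set 1 is therefore given as a description without a test. Total and polysomal libraries of one number are not independent, and the labels do not say whether a number stands for 1 culture or 1 day, so that the 4 pairs may be 1 replicate of each set.

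Budding yeast adjusts iron uptake through the activators Aft1 and Aft2, which turn on genes of uptake and intracellular mobilization when iron-sulfur cluster supply is low. Iron enters by 2 routes. In the siderophore route the Fit mannoproteins of the wall help to retain siderophore-bound iron, which carriers take up. In the reductive route surface reductases feed the ferroxidase Fet3 and the permease Ftr1. Under low iron the mRNA-binding protein Tis11 also lowers mRNAs of iron-consuming proteins. Levels are in CPM, counts relative to library size after scaling by the TMM method. A gene counts as higher or lower where its log2 ratio of set 3 to set 1 had the same sign in 4 of 4 pairs and averaged at least 1 (2-fold). Ratios are given as the mean ± SD over the 4 pairs.

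Depth ran from 16691019 to 31148081 gene-assigned reads over the 8 libraries, and the deepest was the polysomal no RNA library of set 3. TRM10 had 0 to 5 reads in each, 10 in all, where a count of 0 allows up to 3 reads. Markers of mating type and auxotrophy were compared between the sets, and identity of the strain was not tested. The alpha-factor gene MF(ALPHA)1 stood at 111 to 134 CPM in set 1 and 50.9 to 92.3 CPM in set 3, while the a-factor genes MFA1 and MFA2 had at most 33 and 20 reads in a library. Other mating-type genes did not all follow MF(ALPHA)1. Of 4 alpha-cell genes 0 were higher and 2 lower in 4 of 4 pairs, and STE3 and SAG1 overlapped between the sets. Of 7 a-cell genes 1 was higher and 3 lower in 4 of 4 pairs (34.9% and 29.6% over all genes). The a-cell gene STE6 had up to 391 reads, with every library of set 3 above every library of set 1. LEU2 had 0 reads and LYS2 0 to 1 in every library of the sets. Of 4 auxotrophic marker genes tested 3 were lower in 4 of 4 pairs (29.6% over all genes), and 1 passed the 2-fold limit (2.42% over all genes). This was HIS3, with 218 to 493 CPM in set 1 and 93.7 to 170 CPM in set 3 (-1.29 ± 0.48). It was not called once centred on coding length as described below (-0.98). TRP1 gave -0.67 ± 0.09 and MET17 -0.78 ± 0.22.

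Of 5948 genes tested, 138 (2.32%) were higher and 144 (2.42%) lower in set 3. The sign was the same in 4 of 4 pairs for 2077 genes (34.9%) on the higher side and 1761 (29.6%) on the lower side. All 4 libraries of set 3 lay above all 4 of set 1 in 1414 genes (23.8%), and below in 930 (15.6%). Across genes the ratios of any 2 pairs correlated with Pearson's r of 0.583 to 0.809 (5948 genes, which are not independent). With DESeq2's size factors in place of TMM, 111 genes were higher and 190 lower, which moves the higher share of the called genes from 48.9 to 36.9%, and the median ratio of all genes from 0.05 to -0.01. Set 2 lay between the other sets in 107 of the 138 higher genes and in 94 of the 144 lower genes. Picking genes for a 2-fold difference between sets 1 and 3 favours a middle place for set 2. The share over all genes is not given here, so these counts do not show that set 2 is intermediate.

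The ratio followed the length of the gene. Spearman's rho between the mean ratio and coding length was 0.64 over 5695 genes, and 0.50 to 0.63 in single pairs. In genes with a coding sequence of at most 300 bases the median ratio was -0.54, and in genes above 3000 bases it was 0.46. Of the shortest class 14.8% were called lower and of the longest 5.81% were called higher. The lower genes had a median coding length of 387 bases against 1716 for the higher genes. With GC content rho was -0.39, and it varied between pairs. It was -0.25 and -0.09 in the total and polysomal no RNA pairs, and -0.41 and -0.63 in the total and polysomal rancRNA_18-M2 pairs. After each pair was centred on a smooth curve over coding length, 121 of the 5695 genes with a coding length were higher and 34 lower. A coding length was known for 126 of the 138 higher genes, of which 73 were called again, and for 115 of the 144 lower genes, of which 22 were called again. The part of length in the results below was not tested, and the length-centred median is given with the lists described.

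**Figure D1:**
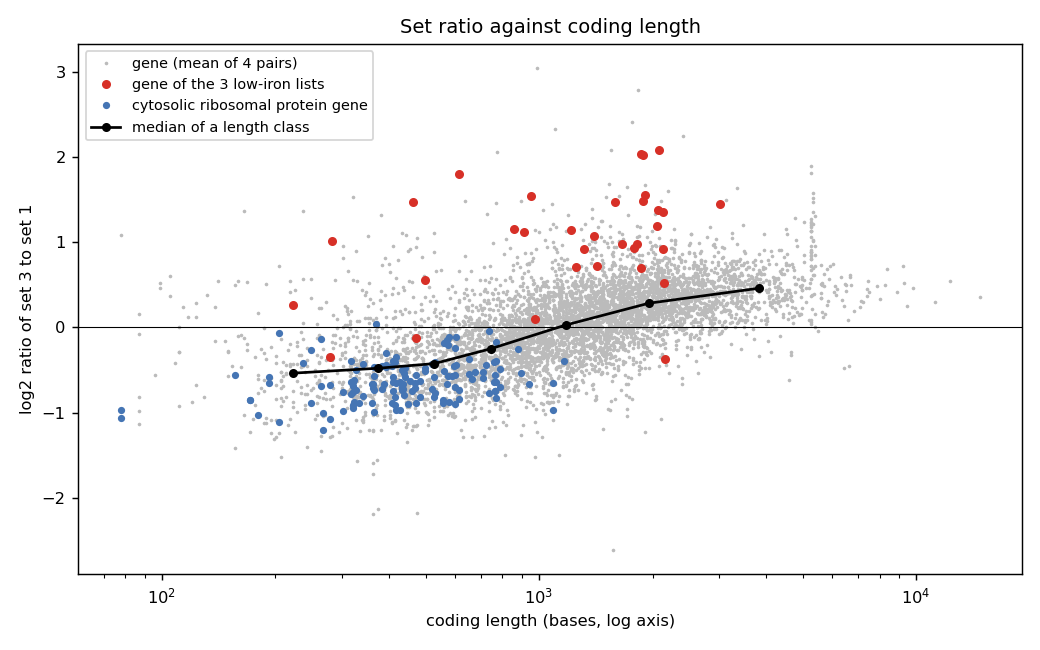
Each grey point is a gene, with its coding length in bases (log axis) against its mean log2 ratio of set 3 to set 1 over 4 pairs. Black points give the median of a length class, which runs from -0.54 at up to 300 bases to 0.46 above 3000 bases. Genes of the 3 low-iron lists (red) lie mostly above this line, and cytosolic ribosomal protein genes (blue) lie at its short end.

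The siderophore route had the largest median of 48 lists with at least 5 tested members. Of its 7 genes 6 were higher in set 3 and 0 lower (2.32% and 2.42% over all genes). In 7 of 7 the libraries of the sets did not overlap, with set 3 above (23.8% over all genes). Their median log2 ratio was 1.48, with pair medians from 1.36 to 2.06, and it was 1.78 after centring on length, beside 0.05 and 0.01 over all genes. Among the 4 genes with the largest ratios, FIT3 and SIT1 hold the core of the Aft1 and Aft2 site, GCACCC or its reverse complement GGGTGC, within 250 bases before to 50 bases after the start codon. The upstream stretches of these 2 genes are shown because they carry the motif that the list's activators are known to bind, in capitals here. They are read 5′ to 3′ on the gene's strand from 250 to 101 bases before the start codon, in the RefSeq R64 assembly, at chrXV:1061156-1061305 (minus strand) for FIT3 and chrV:27407-27556 (plus strand) for SIT1.
FIT3: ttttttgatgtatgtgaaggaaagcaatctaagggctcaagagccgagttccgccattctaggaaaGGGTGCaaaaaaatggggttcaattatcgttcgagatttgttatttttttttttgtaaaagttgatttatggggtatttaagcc
SIT1: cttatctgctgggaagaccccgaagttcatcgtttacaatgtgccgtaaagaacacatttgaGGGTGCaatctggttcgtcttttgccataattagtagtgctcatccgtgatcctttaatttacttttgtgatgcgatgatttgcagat

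In both stretches the motif reads GGGTGC on the gene's strand. On either strand it occurred in 4.28% of the 5695 promoters of tested genes, in 15.1% of those of the 126 higher genes with a promoter sequence and in 4.35% of those of the 115 lower genes. By list it was found in 5 of 7 siderophore, 9 of 13 reductive and 3 of 13 intracellular iron genes. A match describes the letters only.

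FIT3, a cell wall mannoprotein that helps to retain siderophore-bound iron, stood in set 1 at 928 CPM (total) and 764 CPM (polysomal) with no RNA, and at 1155 and 1382 CPM with rancRNA_18-M2. In set 3 the same order gave 3511, 3557, 4174 and 3204 CPM. Each library of set 3 was above each of set 1, with a log2 ratio of 1.80 ± 0.42. Its relative FIT2 had 2046, 2267, 2671 and 4604 CPM in set 1 and 5953, 9433, 6494 and 9366 CPM in set 3 (1.48 ± 0.44). The low FIT1 went from 6.14 to 6.94 CPM in set 1 to between 17.5 and 19.0 CPM in set 3.

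The carriers of siderophore-bound iron gave ratios that hardly varied between pairs. ARN2, a triacetylfusarinine carrier, had 69.4, 51.6, 63.9 and 50.3 CPM in set 1 and 263, 215, 276 and 208 CPM in set 3 (2.03 ± 0.08). ARN1, a ferrichrome carrier, had 28.3 to 34.0 CPM in set 1 and 117 to 146 CPM in set 3 (2.03 ± 0.13). SIT1, a ferrioxamine carrier, had 114, 93.5, 139 and 111 CPM and then 304, 294, 344 and 327 CPM (1.48 ± 0.15). For all 3 every library of set 3 was above every library of set 1. ENB1, the enterobactin carrier, stayed just under the 2-fold limit (0.98 ± 0.11).

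**Figure D2:**
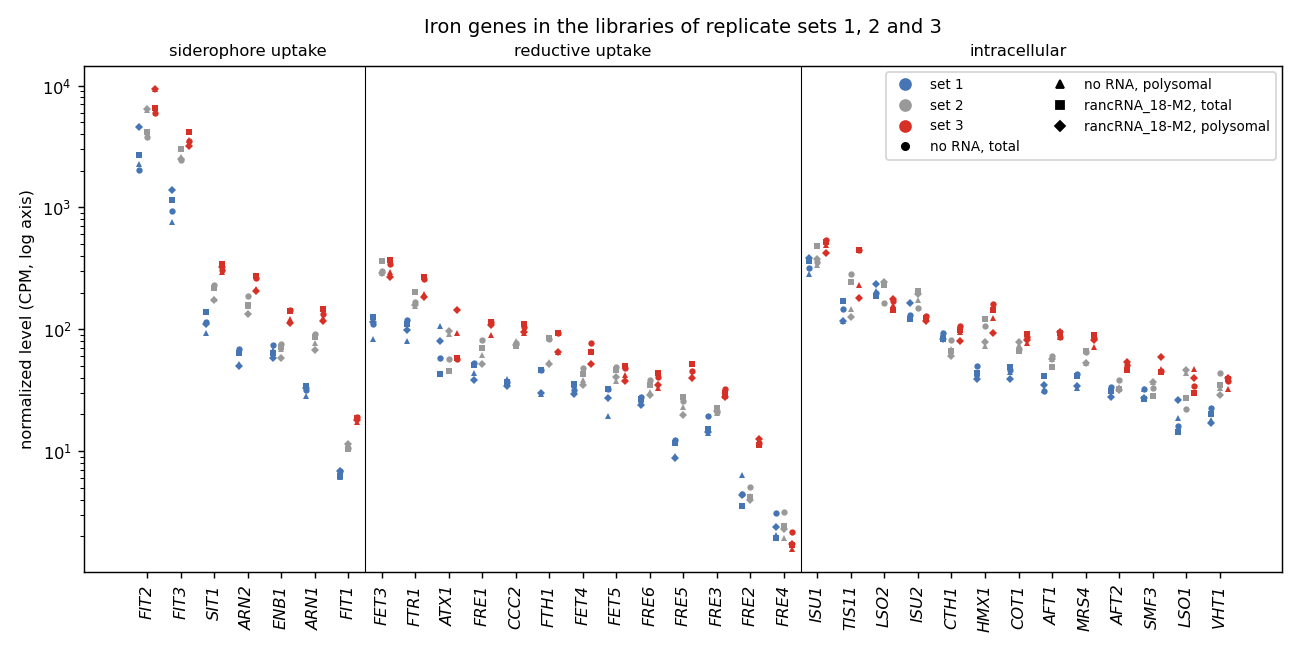
Levels in CPM (log axis) of the genes of the siderophore, reductive and intracellular iron lists, with 1 point for each library. Colour gives the set and marker shape the group. Set 3 (red) lies above set 1 (blue) in every library pair of ARN1, ARN2, FIT3, FET3 and HMX1, and FRE4 and LSO2 lie lower in set 3. Set 2 (grey) lies between them in most genes.

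The reductive route differed in the same direction. Of 13 genes 7 were higher and 0 lower (2.32% and 2.42% over all genes). The median ratio was 1.07 (pair medians 0.95 to 1.12), or 0.91 centred on length. FET3, the multicopper ferroxidase, had 111, 83.2, 127 and 114 CPM in set 1 and 342, 296, 373 and 267 CPM in set 3 (1.56 ± 0.25). FRE5, related to the ferric reductases, had 12.4, 9.15, 11.7 and 8.79 CPM and then 45.6, 41.0, 51.8 and 39.8 CPM (2.08 ± 0.14). CCC2, the pump that supplies Fet3 with copper, had 34.0 to 39.0 CPM in set 1 and 93.1 to 110 CPM in set 3 (1.45 ± 0.14). For these genes no library of set 1 reached set 3. FRE1, a surface reductase, had a ratio of 1.20 ± 0.21, the permease FTR1 1.15 ± 0.18 and its vacuolar counterpart FTH1 1.07 ± 0.07. After centring on length 5 of the 13 genes were called higher, and FRE1 was not (0.91). FRE4 lay in the opposite direction at -0.38 ± 0.13, at under 4 CPM in every library, and the copper chaperone ATX1 varied between pairs (0.27 ± 0.48).

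Inside the cell, 5 of 13 tested genes of the list were higher and 0 lower (2.32% and 2.42% over all genes). The median was 0.92 (pair medians 0.75 to 0.95), or 0.85 centred on length. HMX1, the haem oxygenase, had 50.4, 43.1, 43.9 and 39.2 CPM in set 1 and 161, 123, 144 and 93.1 CPM in set 3 (1.54 ± 0.21). AFT1 itself had 31.3, 31.7, 41.0 and 35.1 CPM and then 87.0, 86.4, 92.9 and 94.5 CPM (1.38 ± 0.14), while AFT2 reached 0.70 ± 0.17. TIS11 had 148 and 171 CPM in the total libraries of set 1 against 447 and 443 CPM in set 3, but 116 and 116 CPM in the polysomal libraries against 232 and 181 CPM (1.15 ± 0.42 over the 4 pairs). Its polysomal ratio was below its total ratio by -0.66 (SE 0.20) on the log2 scale, which did not pass (adjusted p = 0.999 by edgeR's quasi-likelihood test). MRS4, a mitochondrial iron importer, was at 1.12 ± 0.11. CTH1, the relative of TIS11, had 0.10 ± 0.14.

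Proteins that store or use iron lay on the other side. Of 14 genes 10 had a lower level in 4 of 4 pairs and 2 a higher one (29.6% and 34.9% over all genes). In 6 of 14 the libraries of the sets did not overlap, with set 3 below, and in 0 with set 3 above (15.6% and 23.8% over all genes). Only CYC1 passed the 2-fold limit. The median was -0.45 (pair medians -0.70 to -0.30) and -0.58 centred on length. CYC1, the main cytochrome c, had 109, 151, 148 and 228 CPM in set 1 and 47.1, 59.3, 44.4 and 57.9 CPM in set 3 (-1.57 ± 0.35). ISA1, of iron-sulfur cluster assembly, gave -0.60 ± 0.23, the catalase CTT1 -0.56 ± 0.28 and the vacuolar iron importer CCC1 -0.49 ± 0.15. For CTT1 the sets overlapped, with 317 to 450 CPM in set 1 and 171 to 361 CPM in set 3. The biotin synthase BIO2 gave -0.81 ± 0.23. The exceptions were the aconitase ACO1 (0.44 ± 0.35), whose libraries overlapped between the sets, and the ribosome recycling factor RLI1 (0.17 ± 0.08). Set 2 did not take a middle place here for CYC1, at 164 to 271 CPM, and had a median ratio to set 1 of -0.43 over the list. The copper list had a median of -0.28 that was 0.02 once length was removed, with 0 of 9 genes higher and 1 lower, CUP1-2 (-1.13 ± 0.25), a metallothionein gene with a near-identical copy, which was no longer called after centring (-0.45). The zinc list had a median of 0.44, or 0.29 centred, with 0 of 9 genes called in either direction.

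Libraries outside the sets gave further values for the siderophore list. Summed over its 7 genes, set 1 held 3270 to 6245 CPM, set 2 6859 to 9373 CPM and set 3 10326 to 13761 CPM. The 2 total libraries with rancRNA_18, which were in neither set, held 3512 CPM for number 1 and 6588 CPM for number 2. The first lay within set 1, and the second above set 1 and just under set 2.

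Outside the iron lists DIP5 and AQR1 had the 2 largest ratios among genes with at least 20 CPM. DIP5, the glutamate and aspartate permease, had 20.6, 19.4, 26.6 and 22.8 CPM in set 1 and 148, 145, 153 and 168 CPM in set 3 (2.78 ± 0.18). AQR1, an exporter of amino acids and drugs, had 26.1 and 34.3 CPM in total and 11.6 and 15.9 CPM in polysomal mRNA of set 1, against 173 and 156 CPM and 78.3 and 64.4 CPM in set 3 (2.42 ± 0.38). For both genes every library of set 3 lay above every library of set 1. For AQR1 the nearest were 64.4 CPM in set 3 and 34.3 CPM in set 1. Among 17 amino acid permeases 14 were higher in 4 of 4 pairs (34.9% over all genes). The 2-fold limit was passed by 2 (2.32% over all genes), DIP5 and GNP1 (1.14 ± 0.26), a glutamine permease. The median was 0.49, or 0.27 centred on length, and GAP1, the general permease, was lower (-0.41 ± 0.10). The glycerol importer STL1 had 82.4, 64.5, 104 and 81.9 CPM in set 1 and 272, 234, 283 and 240 CPM in set 3 (1.64 ± 0.18), with set 2 already at 192 to 295 CPM. The lactate permease JEN1 gave 1.18 ± 0.26 and the hexose transporter HXT2 1.02 ± 0.14. Centred on length GNP1 (0.86), JEN1 (0.94) and HXT2 (0.83) were no longer called, while DIP5 (2.54), AQR1 (2.19) and STL1 (1.43) remained called.

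Several metabolic enzymes and other genes followed. GTO3, a glutathione transferase, was at 4.51 to 9.98 CPM in set 1 and 27.3 to 48.7 CPM in set 3 (2.33 ± 0.31). PDH1, of the methylcitrate route that uses propionyl-CoA, had 25.9, 25.6, 29.0 and 31.4 CPM and then 110, 119, 132 and 115 CPM (2.09 ± 0.15), with set 2 at the level of set 1. ECM13 gave 2.06 ± 0.13, and ARO10, the decarboxylase of the Ehrlich pathway, 1.68 ± 0.11. YLR410W-B, a retrotransposon gene present in many near-identical copies, gave 1.57 ± 0.28 and is uncertain as a single locus. The tricarboxylic acid cycle had a median of 0.32 (0.11 centred), with the isocitrate dehydrogenase subunits IDH2 at 0.92 ± 0.18 and IDH1 at 0.76 ± 0.28. For trehalose and glycogen 12 of 17 genes were higher in 4 of 4 pairs (34.9% over all genes). The median was 0.46 and became 0.07 centred on length. Galactose genes had 0.38 (0.22 centred), with GAL1 at 3503 to 4647 CPM in set 1 and 3941 to 6665 CPM in set 3, so that the sets overlapped.

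Among the members of the cell cycle and wall lists with the largest ratios were genes of daughter cell separation, which formed no list of their own. SCW11, a glucanase, had 26.9, 24.9, 35.3 and 25.6 CPM in set 1 and 81.0, 79.3, 84.4 and 80.3 CPM in set 3 (1.54 ± 0.19). EGT2 gave 1.49 ± 0.38 and DSE1 1.32 ± 0.24, while DSE2 (1.14 ± 0.23) and DSE4 (1.63 ± 0.31) were singled out after their values were seen. For SCW11, EGT2 and DSE1 set 2 stood near set 1, at means of 23.7, 39.5 and 40.3 CPM against 28.2, 50.2 and 46.4 CPM. The list of mitosis and daughter cell genes as a whole had 2 of 25 higher (2.32% over all genes). Its median was 0.25, which turned to -0.06 after centring on length. Wall proteins differed among themselves: of 39 genes in the wall list 3 were higher and 3 lower (2.32% and 2.42% over all genes). The median was 0.18, or -0.11 centred on length. PIR3, a covalently bound wall protein, had 352, 246, 420 and 295 CPM in set 1 and 144, 114, 134 and 72.8 CPM in set 3 (-1.52 ± 0.40). CWP2, a major mannoprotein, had 1302, 1641, 1514 and 2670 CPM and then 552, 782, 631 and 882 CPM (-1.29 ± 0.22). Centred on length PIR3 remained called at -1.43, and CWP2, with 279 coding bases, was no longer called at -0.70.

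Genes regulated by oxygen and haem did not move as one. Of 18 tested 2 were higher and 5 lower (2.32% and 2.42% over all genes), with a median of 0.16, or -0.14 centred on length. OLE1, the fatty acid desaturase, had 77.7, 58.2, 125 and 86.5 CPM in set 1 and 326, 234, 321 and 211 CPM in set 3 (1.68 ± 0.42). ROX1, the repressor of hypoxic genes, gave 1.18 ± 0.34. HEM13, the coproporphyrinogen oxidase of haem synthesis, had 127, 114, 173 and 159 CPM and then 60.9, 62.2, 66.0 and 51.5 CPM (-1.23 ± 0.34), without overlap. TIR1, a hypoxic wall protein, gave -1.17 ± 0.17 and was no longer called after centring on length (-0.94). OLE1 (1.52), ROX1 (1.20) and HEM13 (-1.15) remained called. ANB1, a hypoxic translation factor named here after its value was seen because it is under 20 CPM on average, gave -2.18 ± 0.17. The list of sterol uptake and seripauperin genes had 5 of 13 lower (2.42% over all genes) and a median of -0.72, or -0.21 centred. The seripauperins are near-identical small wall proteins that are uncertain one by one.

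Ribosomal protein genes had lower levels in set 3, mostly by less than 2-fold. Of 56 ribosomal protein genes of the 40S subunit 51 were lower in 4 of 4 pairs and 1 passed the 2-fold limit. Of 82 of the 60S subunit these were 79 and 5, beside 29.6% and 2.42% over all genes. Their medians were -0.57 and -0.68, and -0.16 and -0.23 after centring on length, with median coding lengths of 432 and 459 bases. RPL37B had 2690, 3252, 2277 and 4770 CPM in set 1 and 1101, 1828, 978 and 1716 CPM in set 3 (-1.20 ± 0.27). RPS28A gave -1.11 ± 0.24. Most of these genes have a near-identical copy, so single values are uncertain. Oxidative phosphorylation had a median of -0.37 that became -0.07, with QCR8 at -1.17 ± 0.03, and histones -0.37 that became 0.11. The proteasome list kept more of its difference. In it 26 of 34 genes were lower in 4 of 4 pairs (29.6% over all genes), with a median of -0.42 (-0.33 centred). The assembly factor UMP1 was at -1.0 ± 0.35. Other genes among the lowest were OPI3, a methyltransferase of phosphatidylcholine synthesis (-1.20 ± 0.32), the checkpoint-regulated HUG1 (-1.52 ± 0.44), the ubiquitin-conjugating enzyme UBC5 (-1.35 ± 0.15) and MYG1 (-1.29 ± 0.36). HUG1, UBC5 and OPI3 have 207, 447 and 621 coding bases, and were no longer called after centring on length (-0.86, -0.89 and -0.86). The same held for RPL37B (-0.60), RPS28A (-0.44), QCR8 (-0.58) and UMP1 (-0.54), while MYG1 remained called (-1.22). MTC7 (-1.24 ± 0.85) had 1 library of set 1, at 32.9 CPM, within the range of set 3.

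**Figure D3:**
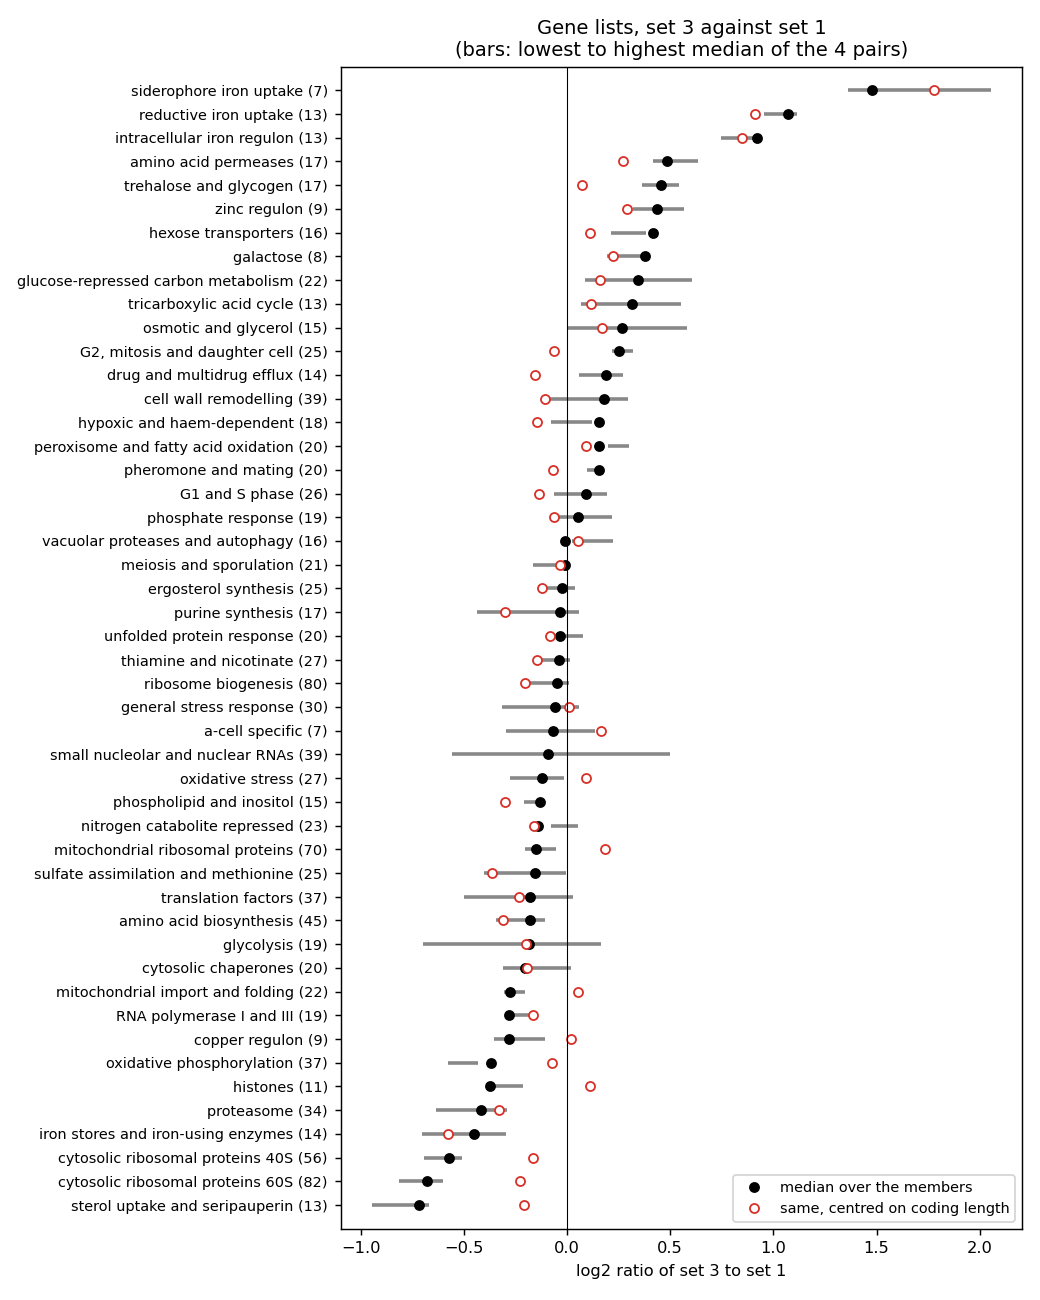
Median log2 ratio of set 3 to set 1 for each gene list with at least 5 tested members (number in brackets). Filled points give the median over the members, bars the lowest to highest median of single pairs, and open red points the median after centring on coding length. The 3 low-iron lists lie apart at 0.92 to 1.48, and at 0.85 to 1.78 after centring, while ribosomal proteins move from -0.57 and -0.68 to -0.16 and -0.23.

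Whether the difference between the sets was the same in polysomal and in total mRNA was tested over 12 libraries (sets 1, 2 and 3). The sets were chosen because libraries of one number deviated together across fractions and electroporations, so few differences between fractions are what that choice favours, and the count supports nothing about agreement. No gene of 5948 passed (0%) by edgeR's quasi-likelihood test with Benjamini-Hochberg adjustment, with 139 at an unadjusted p under 0.05. DESeq2 also called 0, with 69 at an unadjusted p under 0.05. Among genes with at least 20 CPM the smallest p on the polysomal side belonged to PSP1, with a difference of 0.55 (SE 0.18) on the log2 scale, followed by PIG1 at 0.55 (SE 0.19). On the other side stood the RNA helicase gene DBP2 at -0.86 (SE 0.17), MF(ALPHA)1 at -0.75 (SE 0.16) and SRL1 at -0.82 (SE 0.19). Each had an adjusted p of 0.999 by edgeR.

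**Figure D4:**
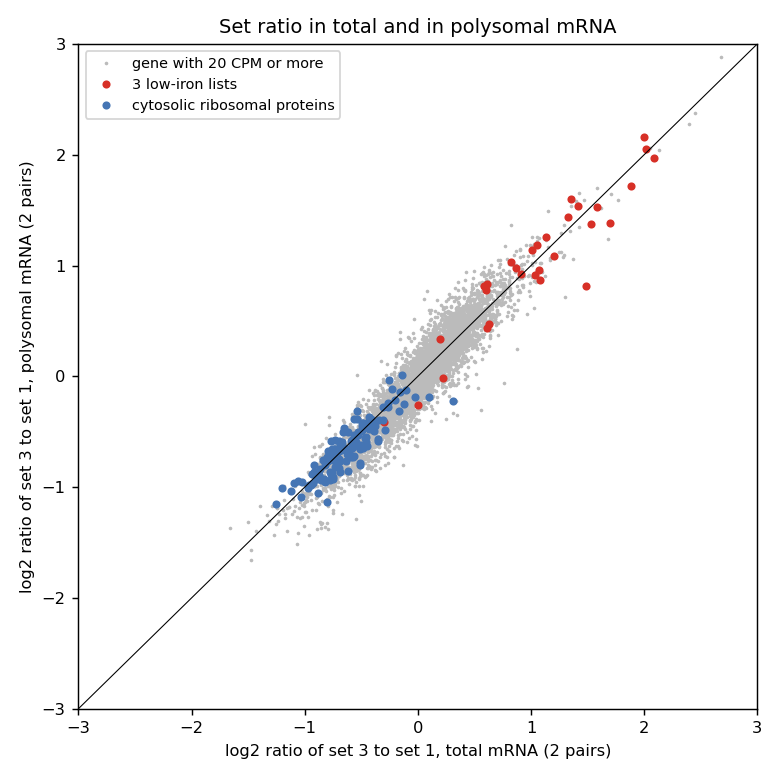
Mean log2 ratio of set 3 to set 1 in total mRNA (2 pairs) against that in polysomal mRNA (2 pairs) for genes with at least 20 CPM. The line marks equal ratios. Low-iron genes (red) and ribosomal protein genes (blue) lie along it at opposite ends, with TIS11 as a red point below the line.

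The same test was made between electroporations. Each combination of set and electroporation holds only the total and the polysomal library of one number, which may be 1 culture. The test takes them as replicates although they are not independent. The sets were also chosen because such libraries deviated together. The p-values of the test may therefore be too small. In the same 12 libraries 19 genes (0.319%) passed for rancRNA_18-M2 against no RNA, 11 with a higher and 8 with a lower ratio of set 3 to set 1 in the rancRNA_18-M2 libraries, and 907 had an unadjusted p under 0.05. SRG1, a noncoding RNA transcribed across the promoter of SER3, had 45.1 and 40.7 CPM with no RNA in set 1 and 26.8 and 15.1 CPM in set 3. With rancRNA_18-M2 it had 24.3 and 20.3 CPM and then 27.3 and 28.1 CPM. The sets thus differed with no RNA and lay close with rancRNA_18-M2, and the ratios differed by 1.41 (SE 0.22; adjusted p = 0.0159 by edgeR). The splicing factor YJU2 had 12 and 10.8 CPM with no RNA in set 1 and 32.0 and 33.6 CPM in set 3, against 28.2 and 24.0 CPM and then 35.0 and 31.0 CPM with rancRNA_18-M2 (-1.19, SE 0.19; adjusted p = 0.0159 by edgeR). For YJU2 the no RNA libraries of set 1 lay below all other 10, of which those of set 2 had 25 to 28.4 CPM. For SRG1 they lay above the other 6 of sets 1 and 3, but set 2 had 40.8 to 67.0 CPM in its 4 libraries.

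The remaining genes named on the higher side were YBR096W (1.21, SE 0.19), YGR182C (1.18, SE 0.21), the cargo receptor ERV14 of vesicles leaving the endoplasmic reticulum (1.21, SE 0.23), the membrane protein insertion subunit EMC5 (1.42, SE 0.26) and COX16, of cytochrome oxidase assembly (0.85, SE 0.17). On the lower side they were the arrestin-related ART5 (-1.02, SE 0.19), YPT35 (-1.03, SE 0.20) and MIN9 (-0.88, SE 0.18). Adjusted p-values by edgeR ran up to 0.0498, for MIN9. Across 5695 genes the difference in ratio had a Spearman's rho of -0.63 with GC content. The called genes had a median GC content of 35.1% on the higher side (9 of 11 genes with a value) and 45.5% on the lower side (8 of 8). The median was 39.8% over the 5695 genes with a value. The median difference of the higher genes was 1.18 over 11 genes, and 0.64 after centring on length and GC over the 9 with a value. That of the lower genes moved from -1.19 to -1.02. SRG1 and YGR182C had no GC content and could not be centred. The part of GC content in these calls was not tested. No gene passed with both interactions in 1 model, with the rancRNA_18 total libraries added, or without the polysomal no RNA library of set 1, the total or the polysomal rancRNA_18-M2 library of set 1, or the polysomal rancRNA_18-M2 library of set 3.

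**Figure D5:**
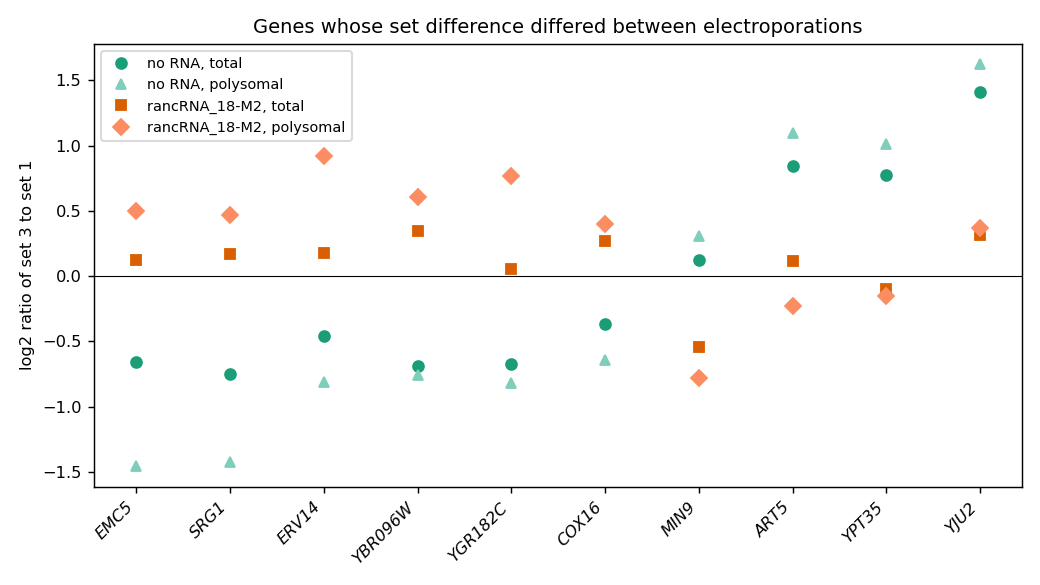
Log2 ratio of set 3 to set 1 in each of the 4 pairs for the 10 named genes whose set difference differed between electroporations. Green symbols are the no RNA pairs and orange symbols the rancRNA_18-M2 pairs. In every gene shown the 2 green symbols lie on one side of the 2 orange ones, from SRG1 and EMC5 with green below to YJU2 with green above.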

How the data were processed

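Each deposited file gives 1 library as whole-number counts of reads assigned to genes, without any scaling by the authors. The submitters' processing notes name HISAT2 and featureCounts, but neither a version nor the build, annotation or strandedness used in counting is given in the sources here. A gene that overlaps a neighbour or has a near-identical copy is therefore uncertain on its own. Libraries were prepared with a stranded kit after oligo-dT selection, per the labels' protocols. Polysomal mRNA of a number and total mRNA of the same number are treated as related. Of 7126 gene IDs 6048 matched locus tags of RefSeq R64, which gave names, coding lengths, GC content and upstream sequences (start codon of the annotated gene, not the transcription start). No spike-in is named, so levels are relative within a library. As these are bulk samples, fewer cells of a kind and less RNA per cell cannot be told apart.

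Counts were scaled by TMM over the 15 distinct libraries and filtered with filterByExpr (edgeR 4.0.16, R 4.3.3). Log2 ratios used a prior count of 2. Centring on coding length used loess with a span of 0.5, an alternative chosen after seeing the data. Interactions were tested with edgeR's quasi-likelihood test and, as an alternative, DESeq2 1.42.0, at an adjusted p under 0.05. For the electroporation interaction the p-values measure the disagreement left between total and polysomal libraries of one number. For the fraction interaction they measure that left between no RNA and rancRNA_18-M2 libraries of one number. Neither is known to be a spread between independent cultures, and either may be technical. Counting intervals and floors cover counting error only.

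The sets, the 50 gene lists and the motifs were chosen with earlier results of these data known. Genes were named by rule: up to 15 per direction with the largest mean ratio among called genes with at least 20 CPM, up to 4 members of each list with the largest ratio and 1 sign in 4 of 4 pairs, and up to 6 called genes per direction for an interaction (3 where none was called). Other members named were chosen after their values were seen: FIT1, FIT2, ENB1, FTR1, FTH1, FRE4, LSO2, ATX1, AFT2, CTH1, BIO2, ACO1, RLI1, DSE2, DSE4, ANB1 and the strain markers. The fits were tested on simulated data before use. For the interaction tests those counts were drawn independently for each library, with no link between total and polysomal libraries of one number. The simulation could therefore not check whether such a link makes the p-values too small.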

Additional observations from a re-analysis of the deposited data

Results flagged for a closer look

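The ratio of set 3 to set 1 differed between rancRNA_18-M2 and no RNA by an interaction test in 19 genes, and 10 with at least 20 CPM were named by the rule. On the log2 scale the difference was 1.41 for SRG1, 1.21 for YBR096W, 1.18 for YGR182C, 1.21 for ERV14, 1.42 for EMC5 and 0.85 for COX16. It was -1.19 for YJU2, -1.02 for ART5, -1.03 for YPT35 and -0.88 for MIN9. Over the 18 alternatives the adjusted p of SRG1 ran from 3.94e-05 to 0.398 and that of YJU2 from 0.000149 to 0.214, each under the threshold in 11 of them. MIN9 was under it in 6.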

How the results depend on the processing

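No paired analysis was possible because a block on the replicate number would remove the factor compared. The ratios of set 3 to set 1 are already paired within each group, and they come from no test. The count of higher genes stayed within 111 to 178 under all 18 alternatives. The count of lower genes was 137 to 209, apart from 34 when centred on coding length and 22 when centred on coding length and GC. Among lists whose median and pair medians had 1 sign, the median turned under both centrings for the copper list (0.020 and 0.022), oxidative stress (0.093 and 0.15), histones (0.11 and 0.22), mitosis and daughter cell (-0.063 and -0.0095), pheromone and mating (-0.069 and -0.042), mitochondrial import (0.052 and 0.078), drug efflux (-0.16 and -0.12) and mitochondrial ribosomal proteins (0.18 and 0.19). Lists without 1 sign that also turned under both were the hypoxic (-0.14 and -0.13), G1 and S phase (-0.13 and -0.094), a-cell (0.17 and 0.15), phosphate (-0.064 and -0.083), general stress (0.010 and 0.10) and vacuolar lists (0.051 and 0.039). The wall list turned only on length (-0.11) and glycolysis only with GC (0.056). The construction of the centring removes a trend with length, and why the ratio follows length was not tested. The fraction interaction had 0 calls in all 18 alternatives. The electroporation interaction, with 19 calls, had 80 by DESeq2, 45 with no filter on low counts, 241 with only the 8 libraries of sets 1 and 3, 0 with the 2 rancRNA_18 total libraries added and 0 with both interactions in 1 model. Leaving out 1 library gave 0 to 190 calls. The cause was not tested. The polysomal no RNA library of set 3 was sequenced most deeply, and TRM10 is at or under the limit that a count of 0 allows in most libraries.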

Other observations

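For 2 wall genes that were lower in set 3, the mean of set 2 was higher than that of set 1. PIR3 had 454 to 798 CPM in set 2, above every library of set 1, and CWP2 1998 to 4173 CPM, which overlapped set 1 (means of 328 and 1782 CPM in set 1). Among all genes at least 2-fold apart, set 2 lay beyond set 1 in 27 of the 138 higher and 35 of the 144 lower genes, and beyond set 3 in 4 and 15. That choice of genes favours a middle place for set 2. The trend with coding length was weaker for set 2 against set 1, with a Spearman's rho of 0.19 over 5695 genes.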
